A study of Mus musculus with 8 samples.

Results

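Diaphyseal Adipoq marrow stromal cells are the cells of the mouse femur that transcribe Adipoq, the gene of the adipokine adiponectin, together with Cxcl12, the chemokine that retains blood stem cells in the marrow. They were chosen by UMI counts (unique molecular identifiers, each standing for 1 captured transcript). A barcode was taken when it held at least 2 UMIs of Adipoq, at least 3 of Cxcl12, at most 1 of Mmp9, and none of Cdh5 (endothelium) or Ptprc (leukocytes). It also had to hold under 100 UMIs per 10000 of Bglap and Bglap2 (osteoblasts) and under 40 per 10000 of Acan, Hapln1 and Matn3 (chondrocytes). This rule found 3065 cells among 45328 kept barcodes of all 8 libraries. Kept barcodes had 500 to 6000 genes and at most 25% of their UMIs from mitochondrial genes.

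Reticular stromal cells of this kind line the sinusoids of the marrow and are also known for the leptin receptor, Lepr. They supply blood stem and progenitor cells with CXCL12 and with stem cell factor, the product of Kitl, and they are a source of marrow adipocytes and, after injury, of osteoblasts. In the shaft of the bone (the diaphysis) they carry an adipocyte-like programme without storing fat, while a related stroma next to the growth plate (the metaphysis) lies among bone-forming cells.

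All cells came from C57BL/6 female mice and had been depleted of blood lineage, CD45 and CD117 positive cells with magnetic beads. The Control group was unfractured bone of mice at 12 weeks of age. In the Fracture group the left leg had been broken by three-point bending at 10 weeks and stabilised with an intramedullary needle, and the bone was taken at day 14. Each group held 2 cell preparations, Control-1, Control-2, Fracture-1 and Fracture-2, and each preparation gave 2 droplet libraries (rep1 and rep2), which were summed, so that n = 2 preparations per group. The labels do not say whether the preparations were separate animals or pools, and p-values therefore measure only the spread between preparations.

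The libraries held 56543151 to 89126291 UMIs, and the median kept cell held 7711 UMIs in Control and 11351 in Fracture. The smallest Fracture barcode held 1929 UMIs, whereas Control tables reached down to 1 UMI. No pair of libraries shared more than 23 kept barcodes or more than 1 diaphyseal Adipoq barcode. Both tables of Control-1 listed no gene whose name begins with a capital U, 290 genes that held 1.26 to 1.47% of the UMIs of the other libraries, and none of 77 genes whose names begin with a small n, so these 367 genes were left out of every test. Leftover blood cells held at least 1 UMI of Ptprc and none of Pdgfrb, Cdh5 or Acan. They numbered 1129, 593, 28 and 21 in Control-1, Control-2, Fracture-1 and Fracture-2 and are used below as cells that should lack the stromal genes. Barcodes with free RNA of Pdgfrb, Cdh5 or Acan were thereby left out, so shares in blood cells may understate free RNA.

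Diaphyseal Adipoq cells numbered 1679 in Control-1, 1242 in Control-2, 61 in Fracture-1 and 83 in Fracture-2. Their median depth was 5247, 6917.5, 5977 and 5941 UMIs in the same order, and their summed UMIs were 9487115, 8993035, 471167 and 607909. The Fracture values therefore rest on far fewer UMIs than the Control values. A cell was called mixed when it also held at least 50 UMIs per 10000 of haemoglobin or of Col2a1, 100 of Col1a1, or 20 of S100a8 and S100a9, genes of red cells, chondrocytes, osteoblasts and neutrophils. Mixed cells were 21 of 1679, 20 of 1242, 17 of 61 and 20 of 83 cells, and they held 1.45, 2.56, 38.9 and 32.2% of the UMIs. Whether mixed cells were doublets, cells holding free RNA or cells changing state was not tested. Because mixed cells were so unevenly spread between the groups, results are given with and without them, an alternative added after the data were seen. The limits covered no basophil or megakaryocyte gene. At least 2 basophil and mast cell markers were found in 20.9, 4.43, 0 and 0% of cells in the same order. For megakaryocyte markers the shares were 31.9, 9.18, 1.64 and 2.41%. RNA of these types, more common in Control, was thus left in.

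The sample labels give no position along the bone, so the name rests on its markers Adipoq, Esm1, Lepr, Lpl and Il1rn, which were high in every preparation. Their summed level was 12871, 11829, 5429 and 5928 CPM (UMIs of a gene per 1000000 UMIs of the cells) in Control-1, Control-2, Fracture-1 and Fracture-2, against 191, 134, 51.7 and 48.0 CPM in all other kept cells. Adipoq was itself used by the rule, so the other 4 were summed without it, at 9547, 8722, 3467 and 3675 CPM in these cells and at 159, 114, 47.7 and 44.0 CPM in all others. At least 2 of these 4 were found in 98.9, 99.8, 95.1 and 89.2% of the cells, and at least 1 in 99.8, 100, 98.4 and 97.6%. These are values of the cells the rule took, with no test. Lepr (mm10, chr4:101717404-101815352) had 77.7 and 86.4% of all its kept UMIs in these cells in Control but 14.8 and 16.9% in Fracture. Adipoq (chr16:23146536-23158028) had 89.1 and 94.2% in Control and 62.4 and 67.8% in Fracture, and Kitl (chr10:100015630-100100416) 68.8 and 77.6% against 9.2 and 11.6%. Most Lepr and Kitl transcripts of fractured bone thus lay in cells outside the rule, although Lepr was still 51.5 and 54.4 times as abundant in these cells as in the others there (43.9 and 60.4 times in Control).

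**Figure D1:**
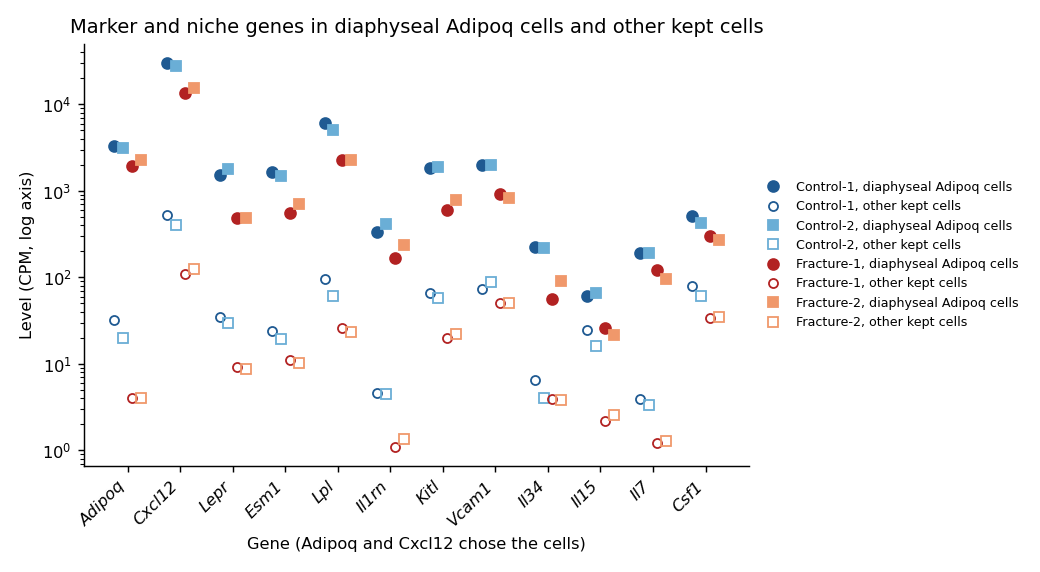
Level (CPM, log axis) of marker genes and secreted or adhesive factors in diaphyseal Adipoq cells (filled) and in all other kept cells (open) of each preparation. Every filled point of Lepr, Esm1, Lpl, Kitl, Vcam1, Il34 and Il15 is lower in Fracture than in Control, as for Lepr at 480 CPM against 1532 and 1776 CPM.

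Marker levels of several other cell types were higher in the Fracture cells, some of them in mixed cells only and some with and without these. Chondrocyte, erythroid and neutrophil sums fall by construction when mixed cells are left out, since Col2a1, haemoglobin, S100a8 and S100a9 define such cells. Chondrocyte markers summed to 588, 225, 9935 and 5338 CPM, and to 548, 208, 1813 and 1818 CPM with mixed cells left out. Erythroid markers summed to 691, 2056, 15299 and 8354 CPM, and to 140, 280, 377 and 541 CPM without mixed cells. Osteoblast markers summed to 5727, 6075, 6962 and 2985 CPM, and to 5752, 6102, 2331 and 2922 CPM. With all cells, most of the osteoblast sum was Ibsp, given below. The rule itself limited Bglap and Bglap2 in the osteoblast list and Acan, Hapln1 and Matn3 in the chondrocyte list. Neutrophil markers stood at 15.0, 12.5 and 12.9 CPM in the first 3 preparations and at 3197 CPM in Fracture-2 (41.8 CPM without mixed cells). In Fracture-2, 1 of 83 cells held 99.1% of the S100a8 and S100a9 UMIs. Endothelial markers never passed 34.6 CPM, with Cdh5 at 0 by the rule, B cell markers never passed 4.43 CPM and Schwann cell markers 18.8 CPM. Septoclast-like markers, of the protease-rich stroma at the growth plate, summed to 825, 938, 2172 and 2364 CPM, and to 834, 946, 2172 and 2509 CPM without mixed cells. With all cells, most of that sum was Mmp13, given below, and the rule limited Mmp9. In all other kept cells the septoclast-like sums were 550, 439, 1452 and 1446 CPM, so they were higher in Fracture there too. Smooth muscle and pericyte markers summed to 881, 756, 929 and 1239 CPM, and to 887, 765, 1433 and 1392 CPM without mixed cells. Fibroblast markers summed to 185, 12.5, 284 and 395 CPM (155, 12.7, 21.1 and 138 CPM without mixed cells) and tendon markers to 42.3, 20.2, 275 and 263 CPM (36.4, 20.5, 151 and 93.5 CPM). Of the latter, 4 of 6 fibroblast and 2 of 3 tendon markers rose in the test described below, and they were not called without mixed cells. Metaphyseal stromal markers summed to 245, 214, 738 and 1387 CPM, and to 246, 215, 785 and 822 CPM without mixed cells. In all other kept cells the metaphyseal sums were 211, 151, 668 and 635 CPM, again higher in Fracture.

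Cells next to the thresholds were few. Of otherwise eligible cells, 232 in Control and 25 in Fracture held 1 UMI of Adipoq and were left out, 142 and 13 held exactly 2, and 2779 and 131 held 3 or more. Along these steps Lepr stood at 423, 1083 and 1659 CPM in Control and at 98.5, 273 and 496 CPM in Fracture. The median depth was 2790.5, 2362.5 and 5937 UMIs in Control and 7392, 6593 and 5941 in Fracture. Fracture cells thus held less Lepr within each step, but only the last step was alike in depth. Only 3 Control cells and no Fracture cell missed the limit by holding 1 or 2 UMIs of Cxcl12.

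In Control some genes varied strongly between the cells, with mixed cells left in. With each cell thinned at random to 2000 UMIs (1534 and 1189 cells), the variance of a gene divided by its mean had a median of 1.05 in both preparations over 3400 genes, where counting alone would give a value near 1. Spp1, the bone matrix protein osteopontin, reached 17.3 and 47.0 and was found in 47.5 and 30.5% of cells. Fabp4, the fatty acid carrier of adipocytes, reached 12.8 and 30.4 with 11.7 and 10.3% of cells positive, and the chemokine gene Ccl2 22.2 and 15.6 with 8.15 and 7.15%. Cxcl9, an interferon-induced chemokine, reached 10.6 and 21.0 and was found in 9.52 and 19.3% of cells. By contrast Igfbp5, which binds insulin-like growth factors, varied strongly (12.1 and 12.0) while present in 98.7 and 99.3% of cells, as did Ibsp, bone sialoprotein, at 11.7 and 10.9 with 84.2 and 84.4%. Some of the most variable genes belong to blood cells, such as Hbb-bs at 199 and 235 and the basophil protease gene Prss34 at 37.9 and 26.1, the latter in 19.5 and 6.56% of cells. In blood cells of the same preparations Spp1 was found in 24.03 and 10.98%, Fabp4 in 2.896 and 3.09%, Igfbp5 in 4.92 and 1.72%, Ibsp in 9.56 and 4.97%, Ccl2 in 0.193 and 0% and Cxcl9 in 0.0965 and 0% of cells.

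Diaphyseal Adipoq cells made up a far smaller share of kept cells after fracture. They were 12.7, 13.6, 15.6 and 15.7% of kept cells in the 4 Control libraries and 0.655, 0.379, 0.817 and 0.483% in the 4 Fracture libraries. Over preparations the share was 13.2 and 15.7% in Control (14.4 ± 1.78, SD, n = 2) and 0.514 and 0.649% in Fracture (0.582 ± 0.0956, SD, n = 2), a difference of -13.8 percentage points. The groups did not overlap, but with 2 preparations against 2 the two-sided exact permutation test cannot give a p below 0.333, and it gave 0.333. Fracture tissue includes callus, which Control bone lacks, and barcodes had been selected to different depths before deposit, so a loss of these cells and an addition of others cannot be told apart. When only barcodes of at least 3000 UMIs, thinned to that number, were used the difference was -14.3 points, and without mixed cells it was -13.8 points.

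**Figure D2:**
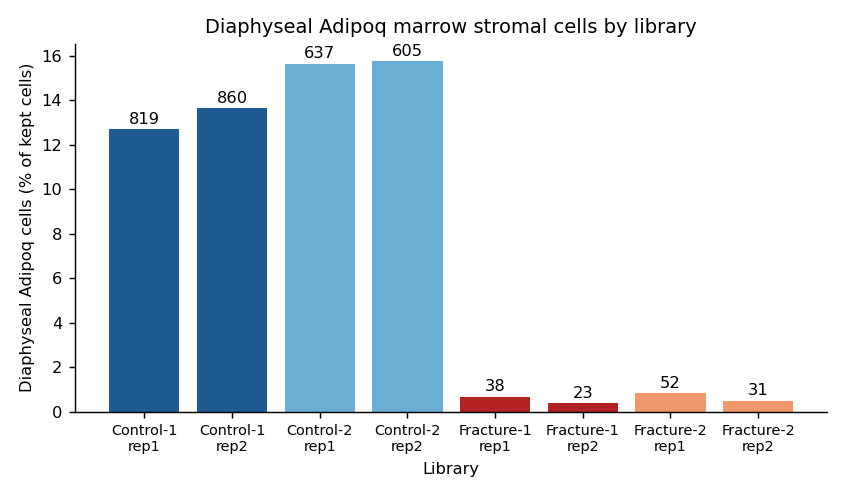
Share of diaphyseal Adipoq cells among kept cells (%) in each of the 8 libraries, with libraries of 1 preparation side by side. The 4 Control libraries lie between 12.7 and 15.7%, and the 4 Fracture libraries between 0.379 and 0.817%.

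To ask how the cells themselves differed after fracture, UMIs were summed per preparation and compared by edgeR's quasi-likelihood test, with calls at a Benjamini-Hochberg adjusted p under 0.05. Calls below are those of edgeR unless DESeq2 is named. Of 12616 genes tested, 340 (2.69%) were higher in Fracture and 180 (1.43%) lower, the smallest adjusted p being 0.00319. With mixed cells left out, 126 of 12522 genes (1.01%) were higher and 108 (0.862%) lower, and 200 genes were called both ways, 38.5% of the 520 and 85.5% of the 234. DESeq2 called 687 genes higher (5.45%) and 271 lower (2.15%), among them 503 of the 520. Scaling by library totals gave 300 higher and 295 lower, with the median of all genes at -0.17 against -0.05, and no filter on low counts gave 369 and 286. Leaving out a preparation, 343 genes were called without Control-1, 172 without Control-2, 68 without Fracture-1 and 37 without Fracture-2. Such a fit holds 1 preparation against 2, the spread then comes from the group of 2 alone, and fewer calls follow in part from the lost replicate. Lepr, for example, ranged from -1.76 to -1.55 and Kitl from -1.55 to -1.18 over these 4 fits. Had the genes unlisted in Control-1 been counted there as 0, no gene would have been called by edgeR (2757 at an unadjusted p under 0.05, against 2967 with them left out). As UMIs are sums over cells, fewer transcripts per cell and fewer cells that transcribe a gene are not told apart. The share of cells with a UMI, given below for some genes, falls in both cases.

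Kitl, Vcam1, Il34 and Il15, signals by which these cells act on blood cells in the marrow, were lower. Of 11 niche factor genes tested besides Cxcl12, 4 fell and none rose, with a median log2 fold change of -0.71 against -0.05 over all genes, and the same 4 fell with mixed cells left out. Kitl, stem cell factor, was at 1816 and 1909.8 CPM in Control against 598 and 777 CPM in Fracture (log2 fold change -1.31 ± 0.17, adjusted p = 0.0179), which is 2.49 times less, and at -1.09, adjusted p = 0.0189 without mixed cells. Vcam1, which holds blood progenitors and lymphocytes to the stroma, was at 1997 and 2010.1 CPM in Control against 909.8 and 829 CPM in Fracture (-1.08 ± 0.15, adjusted p = 0.0186). Both genes were lower in each Fracture preparation than in either Control preparation. Il34, a ligand of the macrophage receptor CSF1R, was at 227 and 219 CPM in Control against 55.9 and 90.04 CPM in Fracture (-1.47 ± 0.21, adjusted p = 0.0204), and Il15, which sustains natural killer cells, at 60.1 and 65.5 CPM in Control against 25.8 and 21.7 CPM in Fracture (-1.29 ± 0.21, adjusted p = 0.0278). Il7, the cytokine of early B cells, had a value of -0.71 ± 0.17, adjusted p = 0.0659, and Csf1, the other CSF1R ligand, of -0.59 ± 0.16, adjusted p = 0.0887, neither past the threshold, although DESeq2 called Il7 (-0.70, adjusted p = 0.0273). Igf1 (729 and 722 against 884 and 780.4 CPM, 0.32 ± 0.15, adjusted p = 0.246) and the angiopoietin gene Angpt1 (199.5 and 177 against 120.4 and 130.1 CPM, -0.46 ± 0.15, adjusted p = 0.121) were not called. Cxcl12, part of the rule, was at 29929 and 27665 CPM in Control against 13643 and 15361 CPM in Fracture as a description.

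The genes that mark the cells were lower too, 3 of 4 tested. Lepr was at 1532 and 1776 CPM in Control against 479.6 and 480.2 CPM in Fracture, with libraries between 380 and 529 CPM in Fracture and between 1481 and 1825 CPM in Control (-1.66 ± 0.15, adjusted p = 0.010). Its median per cell was 15.6, 17.1, 5.52 and 4.45 UMIs per 10000 in Control-1, Control-2, Fracture-1 and Fracture-2. With every cell thinned to 2000 UMIs, Lepr was found in 89.96 and 91.8% of cells in Control and 63.9 and 60.2% in Fracture, and in 0.772, 0.343, 0 and 4.76% of the blood cells. Esm1, the proteoglycan endocan, was at 1645 and 1491 CPM in Control against 557 and 707 CPM in Fracture (-1.19 ± 0.17, adjusted p = 0.0208) and Lpl, lipoprotein lipase, at 6035 and 5039.8 CPM in Control against 2263 and 2253 CPM in Fracture (-1.17 ± 0.17, adjusted p = 0.0221). All 3 genes passed the threshold with mixed cells left out, Lepr at -1.49, adjusted p = 0.0123, Esm1 at -1.13, adjusted p = 0.0146 and Lpl at -0.97, adjusted p = 0.0311. Il1rn, the decoy ligand of the interleukin-1 receptor, was at 334 and 415 against 168 and 235 CPM and was not called (-0.76 ± 0.20, adjusted p = 0.0816). Il1rn was called by DESeq2, as given below. The thinning left out 145 and 53 Control cells and no Fracture cell.

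**Figure D3:**
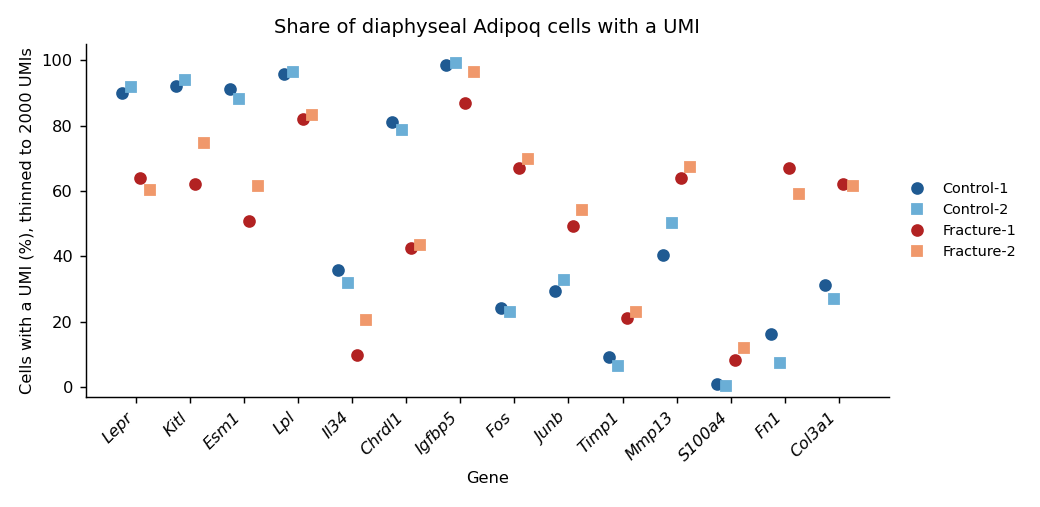
Share of diaphyseal Adipoq cells (%) with at least 1 UMI of each gene in the 4 preparations, every cell thinned to 2000 UMIs. Lepr, Kitl, Esm1, Lpl, Il34, Chrdl1 and Igfbp5 lie lower in both Fracture preparations than in both Control preparations, as for Lepr at 60.2 and 63.9% against 89.96 and 91.8%, while Fos, Junb, Timp1, Mmp13, S100a4, Fn1 and Col3a1 lie higher.

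Among genes of lipid handling and adipogenesis the picture was split. Of 24 tested, 3 were higher and 2 (Lepr and Lpl) lower, with a median of 0.75, or 0.42 without mixed cells. Fabp4 was at 170.4 and 258 CPM in Control against 539.9 and 1176 CPM in Fracture (2.13 ± 0.38, adjusted p = 0.0352), and Cd36, a fatty acid transporter, at 3.9 and 5.41 CPM in Control against 40.9 and 28.3 CPM in Fracture (2.997 ± 0.36, adjusted p = 0.0141). Both also rose without mixed cells, Fabp4 at 2.11, adjusted p = 0.0109 and Cd36 at 2.99, adjusted p = 0.0267. Mgll, which splits monoglycerides, rose in all cells (2.02 ± 0.31, adjusted p = 0.0247) but was not called without mixed cells (1.85, adjusted p = 0.0504). The central adipogenic regulators showed no call, Pparg at 101 and 96.9 against 90.3 and 70.03 CPM (-0.19 ± 0.17, adjusted p = 0.576) and Cebpa at 252 and 219 against 209 and 183 CPM (-0.14 ± 0.15, adjusted p = 0.638). Cfd, the adipokine adipsin, was at 134 and 22.99 CPM in Control against 2.15 and 2361 CPM in Fracture, so that its value of 4.02 ± 1.79, adjusted p = 0.236 came from Fracture-2 alone, and it was -5.10 without that preparation. Adipoq, part of the rule, was at 3324 and 3107 against 1962 and 2253 CPM.

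Of 22 stromal transcription factors, 2 rose and 5 fell with all cells, and 1 rose without mixed cells, where the 5 that fell were not called. Klf4, a factor of the Krüppel-like family, was at 17.1 and 8.68 CPM in Control against 103 and 83.4 CPM in Fracture and was called both ways (2.96 ± 0.36, adjusted p = 0.0141, and 2.41, adjusted p = 0.0311 without mixed cells). Foxc1, which maintains the niche programme of these cells, was at 740.1 and 868 CPM in Control against 424 and 449 CPM in Fracture (-0.76 ± 0.15, adjusted p = 0.0458) and at -0.67, adjusted p = 0.0756 without mixed cells. Ebf3, which represses the bone programme in them, was at 665 and 658 against 369.9 and 392 CPM (-0.67 ± 0.13, adjusted p = 0.0479), and not called without mixed cells (-0.39, adjusted p = 0.176). Runx1 (-0.70 ± 0.14, adjusted p = 0.0473), Hoxa10 (-1.098 ± 0.20, adjusted p = 0.0378) and Snai2 (-0.97 ± 0.14, adjusted p = 0.0194) also fell with mixed cells in and were not called without them. The values were then -0.63, adjusted p = 0.0711, -0.97, adjusted p = 0.0715 and -0.73, adjusted p = 0.0548. Ebf1 (-0.65 ± 0.19, adjusted p = 0.105), Prrx1 (0.04 ± 0.15, adjusted p = 0.912) and Runx2 (-0.16 ± 0.18, adjusted p = 0.654) were not called.

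Growth factor binding proteins and antagonists secreted by the cells moved in part. Igfbp5 was at 10914 and 11227 CPM in Control against 3205 and 4234 CPM in Fracture (-1.45 ± 0.20, adjusted p = 0.0184) and Igfbp3 at 189.9 and 215 CPM in Control against 70.98 and 30.01 CPM in Fracture (-1.92 ± 0.33, adjusted p = 0.0316), both binding insulin-like growth factors, and both fell without mixed cells as well (-1.28, adjusted p = 0.0176 and -2.105, adjusted p = 0.0174). The pooled ratio of Igfbp3 went from 0.237 to 0.139 without Fracture-1 rep1. Igfbp6 and H19 were the 2 of 11 genes of this system that rose, and neither was called without mixed cells (2.501, adjusted p = 0.278 and 3.11, adjusted p = 0.106). In the list of BMP, TGF-beta and Wnt signalling, 3 of 36 genes were higher and 2 lower. Those lower were Chrdl1, a BMP antagonist, at 1036 and 1038 CPM in Control against 314 and 407 CPM in Fracture (-1.399 ± 0.17, adjusted p = 0.0141), and Sfrp4, a Wnt antagonist, at 690.3 and 688 CPM in Control against 312 and 263 CPM in Fracture (-1.14 ± 0.15, adjusted p = 0.0181), and both fell without mixed cells (-1.49, adjusted p = 0.0123 and -1.39, adjusted p = 0.0125). Chrdl1 was found in 81.2 and 78.6% of cells in Control and 42.6 and 43.4% in Fracture, against 0.483, 0.686, 0 and 0% of blood cells. The BMP antagonist Grem1 (-0.87 ± 0.29, adjusted p = 0.136) was not called. Those higher, Bambi (1.96 ± 0.32, adjusted p = 0.0294), Bmp1 (0.88 ± 0.15, adjusted p = 0.0304) and Frzb (4.48 ± 0.65, adjusted p = 0.0212), were not called without mixed cells. They then stood at 0.88, adjusted p = 0.109, 0.65, adjusted p = 0.0987 and 2.47, adjusted p = 0.129.

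Chaperones of the endoplasmic reticulum, in which secreted proteins fold, held 3 of 22 lower and 1 higher by edgeR, but 8 lower and 6 higher by DESeq2. The median was -0.48 with and without mixed cells. Hspa5, the main chaperone of that compartment, was at 1735 and 1748 CPM in Control against 764 and 800.4 CPM in Fracture (-1.03 ± 0.14, adjusted p = 0.0186). Sdf2l1 (132 and 112 against 34.4 and 31.7 CPM, -1.77 ± 0.19, adjusted p = 0.0117) and Manf (477 and 423 against 232 and 255 CPM, -0.76 ± 0.15, adjusted p = 0.0426) fell as well, and Xbp1, a regulator of the folding response, fell only with mixed cells left out (-1.18, adjusted p = 0.0242). Fkbp10, a folding enzyme of collagen, rose (1.22 ± 0.13, adjusted p = 0.0117).

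Several immediate early genes, transcribed within minutes of a stimulus, were higher. Of 20 tested, 10 rose and none fell (median 1.57), or 15 and none by DESeq2, and 8 rose without mixed cells (median 1.17). Fos was at 449 and 365 CPM in Control against 1665 and 1541 CPM in Fracture (2.100 ± 0.17, adjusted p = 0.00749) and was found in 24.4 and 23.04% of cells in Control and 67.2 and 69.9% in Fracture, though blood cells transcribe it too and give no background. Both Fracture preparations stood above both Control preparations for Fos, Fosb (86.2 and 73.4 against 394 and 273 CPM, 2.18 ± 0.21, adjusted p = 0.0109) and Jun (260.5 and 402 against 903 and 1171 CPM, 1.77 ± 0.24, adjusted p = 0.0186). Egr1 (1.27 ± 0.15, adjusted p = 0.0134), Ier2 (1.82 ± 0.17, adjusted p = 0.010), Zfp36 (1.56 ± 0.14, adjusted p = 0.00999), Junb (1.46 ± 0.15, adjusted p = 0.0117) and the stress factor gene Atf3 (4.23 ± 0.58, adjusted p = 0.0186) were called both ways, whereas Nr4a2 and Ier3 were called only with mixed cells in. Without them they stood at 2.34, adjusted p = 0.0752 and 1.89, adjusted p = 0.0758. Tissue dissociation is known to induce these genes. Of 11 heat shock and dissociation genes, Dnajb1 was the only one edgeR called (1.16 ± 0.16, adjusted p = 0.0194), with a list median of 0.06, and DESeq2 also called Hspa8 lower (-0.64, adjusted p = 1.24e-04). For the immediate early genes the part of dissociation in the result was not tested.

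Many genes of matrix and of repair stroma were higher. Of 29 such genes 17 rose and none fell (median 1.91), and 9 rose without mixed cells (median 0.57), among them Col1a1, whose high cells were taken out by that choice. Fn1, fibronectin, was at 125 and 38.7 CPM in Control against 4502 and 1662 CPM in Fracture (5.36 ± 0.74, adjusted p = 0.0186), and without mixed cells at 120.00 and 36.5 against 1831 and 723 CPM (4.005, adjusted p = 0.0236). Postn, periostin, was at 23.1 and 14.2 CPM in Control against 213 and 569 CPM in Fracture (4.52 ± 0.49, adjusted p = 0.0117, and 3.21, adjusted p = 0.0109 without mixed cells). Col1a1, the main collagen of bone, was at 923 and 872 CPM in Control against 15249 and 12699.5 CPM in Fracture (4.09 ± 0.21, adjusted p = 0.00319), and without mixed cells at 852 and 575 against 1767 and 1682 CPM, a drop that the limit of Col1a1 on these cells fixes, so that no test is given. Col3a1, a fibrillar collagen of repair tissue, was at 311 and 254 against 2037 and 3530.1 CPM (3.42 ± 0.29, adjusted p = 0.00749, and 1.66, adjusted p = 0.0146 without mixed cells). Leaving out 1 library moved 3 of these ratios of Fracture over Control (pooled CPM) by over 1.5 times, an alternative added after the data were seen. Fn1 went from 34.9 to 22.0 without Fracture-1 rep1, Postn from 22.0 to 14.5 and Col3a1 from 10.2 to 6.61 without Fracture-2 rep1. The contractile gene Acta2 rose both ways (2.47 ± 0.39, adjusted p = 0.0255 and 2.63, adjusted p = 0.0304), while Dcn and Lum, small matrix proteoglycans, rose only with mixed cells in (-0.18, adjusted p = 0.565 and 0.45, adjusted p = 0.337 without them). Cells over the Col1a1 limit held 88.9 and 90.5% of the Col1a1 UMIs in Fracture-1 and Fracture-2. How far leaving these cells out itself lowered other matrix genes was not tested. Shares of cells are set beside those of the blood cells, which hold free RNA. Fn1 was found in 16.4 and 7.401% of cells in Control and 67.2 and 59.04% in Fracture, against 11.97, 6.0, 39.3 and 33.3% of blood cells, and Col3a1 in 31.2 and 27.1% of cells in Control and 62.3 and 61.4% in Fracture, against 1.06, 0.172, 14.3 and 19.05%.

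**Figure D4:**
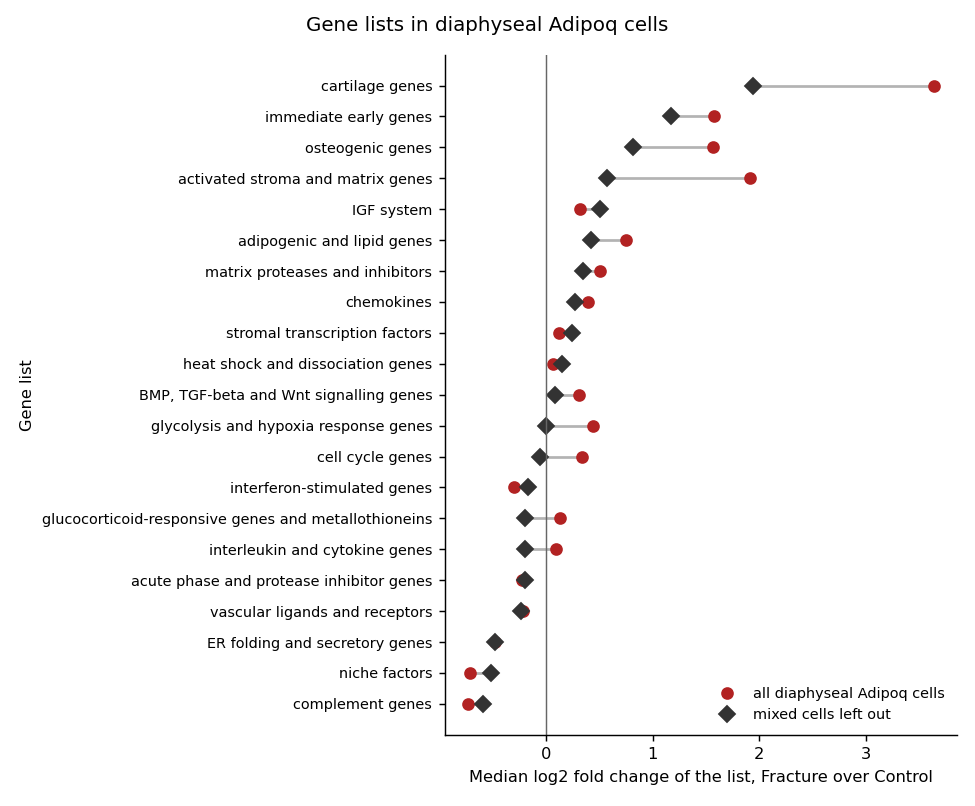
Median log2 fold change (Fracture over Control) of each gene list in all diaphyseal Adipoq cells (circles) and with mixed cells left out (diamonds). Cartilage, matrix and osteogenic lists lie closer to 0 without mixed cells (cartilage at 1.94 in place of 3.64), which were chosen for Col2a1 and Col1a1 among other genes, while complement genes and niche factors lie below 0 both ways.

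Genes of the osteoblast programme were next. Of 17 tested, 8 rose and 1 fell (median 1.56), against 5 and 2 without mixed cells (median 0.82), Col1a1 again included. Spp1 was at 1181 and 741 CPM in Control against 14624 and 3470.02 CPM in Fracture (3.36 ± 0.67, adjusted p = 0.0459), and without mixed cells at 1195 and 714 against 5718 and 4164 CPM (2.37, adjusted p = 0.0123). The pooled ratio of Spp1 went from 8.62 to 5.34 without Fracture-1 rep1. Spp1 was also found in blood cells of Control, as given above, and the part of free RNA in its rise was not tested. Alpl, alkaline phosphatase, was at 243 and 151 CPM in Control against 772 and 462 CPM in Fracture (1.77 ± 0.32, adjusted p = 0.0368, and 1.68, adjusted p = 0.0204 without mixed cells). Phex, an endopeptidase of phosphate balance, fell (136 and 113 against 47.3 and 40.02 CPM, -1.395 ± 0.20, adjusted p = 0.0194). Ibsp was at 5148 and 5777 CPM in Control against 5979 and 2509.6 CPM in Fracture (-0.24 ± 0.38, adjusted p = 0.769), and was called lower without mixed cells (-1.34, adjusted p = 0.0247) and with every cell thinned to 2000 UMIs (-0.86, adjusted p = 0.00134). Col1a2 and Sparc rose with mixed cells in and stood at 0.35, adjusted p = 0.262 and 0.32, adjusted p = 0.3703 without them. How far the limit on Col1a1 itself lowered Col1a2 and Sparc was not tested. Sp7 (1.01 ± 0.31, adjusted p = 0.116), the osteoblast-determining factor, was not called.

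Of 16 cartilage genes 9 rose with all cells and 2 without mixed cells (Col10a1 at 3.24, adjusted p = 0.0224 and Col11a1 at 1.34, adjusted p = 0.0229). Col2a1, the collagen of cartilage, was at 288 and 77.9 CPM in Control against 7498 and 3440.01 CPM in Fracture (5.03 ± 0.72, adjusted p = 0.0205), and without mixed cells, which its own limit defines, at 264 and 72.97 against 958 and 1048 CPM. It was found in 37.7 and 14.1% of cells in Control and 86.9 and 87.95% in Fracture, and in 30.9, 10.98, 82.1 and 85.7% of blood cells, which should lack it. In the Fracture preparations these shares lay close to those of the blood cells, so that they are not read as transcription of Col2a1 in diaphyseal Adipoq cells. Its pooled ratio went from 28.0 to 16.7 without Fracture-1 rep1. The summed chondrocyte markers given above moved with this list in the same samples.

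Among matrix proteases and their inhibitors, 6 of 22 rose and none fell (4 without mixed cells). Mmp13, a collagenase of bone remodelling, was at 723 and 848 CPM in Control against 1936 and 2104 CPM in Fracture (1.49 ± 0.16, adjusted p = 0.0117) and was found in 40.5 and 50.1% of cells in Control and 63.9 and 67.5% in Fracture, against 1.83, 1.37, 10.7 and 14.3% of blood cells. Timp1, an inhibitor of these enzymes, was at 64.4 and 55.2 CPM in Control against 426 and 504 CPM in Fracture (3.08 ± 0.16, adjusted p = 0.00319). Mmp2 (2.96 ± 0.26, adjusted p = 0.00808) and Mmp14 (1.16 ± 0.17, adjusted p = 0.0205), a gelatinase and its membrane-bound activator, also rose. Without mixed cells all 4 remained called, with smaller values. Mmp13 was then at 1.39, adjusted p = 0.0126 and Timp1 at 1.61, adjusted p = 0.0263. Mmp2 was at 2.34, adjusted p = 0.0143 and Mmp14 at 0.96, adjusted p = 0.0261. Mmp3, stromelysin, was at 0.527 and 0.789 against 6.45 and 232 CPM, a rise (7.63 ± 1.27, adjusted p = 0.0303) that lay mostly in Fracture-2, with a pooled ratio of 204, or 111 without Fracture-2 rep2. Of the septoclast-like markers, Fabp5 (2.24 ± 0.31, adjusted p = 0.0186), Rhod (1.304 ± 0.21, adjusted p = 0.02604) and Mmp13 rose, and of the metaphyseal markers Kcnk2 (1.25 ± 0.13, adjusted p = 0.01098) and Slc20a2 (1.31 ± 0.21, adjusted p = 0.02604), all 5 both ways. Postn and Aspn were the other 2 of 5 metaphyseal markers that rose, Aspn only with mixed cells in (2.296, adjusted p = 0.2697 without them). The sums of both marker lists were also higher in Fracture in all other kept cells, as given above.

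Complement and inflammatory genes moved in both directions. Of 14 complement genes, 4 fell and 1 rose (6 and 1 by DESeq2), with a median of -0.73. C1ra (488 and 539.98 CPM in Control against 179 and 243 CPM in Fracture, -1.16 ± 0.18, adjusted p = 0.0247) and C1s (387 and 392 against 168 and 197 CPM, -0.97 ± 0.14, adjusted p = 0.0217), proteases of the classical pathway, fell with and without mixed cells. C3, the central component, was at 490.03 and 499.6 CPM in Control against 139.8 and 462 CPM in Fracture and was not called (-0.58 ± 0.45, adjusted p = 0.497), the Fracture preparations lying apart from each other. Of 17 acute phase and protease inhibitor genes, 3 rose and 3 fell (5 and 4 by DESeq2), among them Serpina3c (-1.51 ± 0.22, adjusted p = 0.0212) as the only one called without mixed cells. Saa3, a serum amyloid gene, was at 4.64 and 0.789 CPM in Control against 15.1 and 3587 CPM in Fracture and was not called (9.46 ± 2.22, adjusted p = 0.0659), its Fracture level lying in the libraries of Fracture-2. Cx3cl1, fractalkine, fell (83.2 and 97.4 against 10.8 and 28.3 CPM, -2.02 ± 0.33, adjusted p = 0.0295) but was not called without mixed cells (-1.81, adjusted p = 0.0622), Cxcl14 fell likewise (-0.91 ± 0.18, adjusted p = 0.0443, and -0.67, adjusted p = 0.0889 without them), and Cxcl1, a neutrophil attractant, rose both ways (11.2 and 7.78 against 58.1 and 158 CPM, 3.66 ± 0.44, adjusted p = 0.0141). Il1r1, the signalling receptor of interleukin-1, fell (192 and 213 CPM in Control against 60.2 and 100.05 CPM in Fracture, -1.19 ± 0.22, adjusted p = 0.0398), the only one of 14 cytokine and receptor genes that edgeR called. DESeq2 also called Il18 higher (2.02, adjusted p = 0.0409) and Il1rn lower (-0.75, adjusted p = 0.0473). Of 29 interferon-stimulated genes edgeR and DESeq2 called only Rsad2 (2.59 ± 0.26, adjusted p = 0.0109 by edgeR), which was not called without mixed cells (1.48, adjusted p = 0.258, list median -0.17).

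The remaining lists held few calls. Fkbp5, induced by glucocorticoids, fell (48.4 and 50.03 against 10.8 and 8.34 CPM, -2.26 ± 0.25, adjusted p = 0.01199), and the metallothionein genes Mt1 (2.27 ± 0.23, adjusted p = 0.0109) and Mt2 (2.44 ± 0.16, adjusted p = 0.00408) rose, but were not called without mixed cells, at 1.53, adjusted p = 0.0861 and 1.47, adjusted p = 0.06796. Of 21 glycolysis and hypoxia genes 3 rose (6 by DESeq2), and these 3 were not called without mixed cells. Of 18 vascular ligands and receptors 2 fell and 2 rose (4 and 2 by DESeq2). Angpt2, which loosens vessels, fell besides Esm1 (82.6 and 83.2 against 15.1 and 18.3 CPM, -2.17 ± 0.21, adjusted p = 0.0109), while Angpt4 (1.32 ± 0.20, adjusted p = 0.0222) and Pdgfc (1.79 and 1.01 against 38.7 and 18.3 CPM, 4.41 ± 0.56, adjusted p = 0.0173), a growth factor of mesenchyme, rose. Vegfa was not called (157 and 176 against 136 and 177 CPM, 0.04 ± 0.17, adjusted p = 0.922). In the cell cycle list Cenpa rose (1.84 ± 0.24, adjusted p = 0.0174) and edgeR called none of the 22 others, while DESeq2 called Ccnb2 (1.98, adjusted p = 0.0144) and Cenpf (1.67, adjusted p = 0.0487) higher as well.

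The 24 genes with the largest changes, taken by a fixed rule, added other functions. On the rising side S100a4, a calcium-binding protein of motile fibroblasts, was at 7.59 and 5.07 CPM in Control against 256 and 480.2 CPM in Fracture (5.98 ± 0.37, adjusted p = 0.0040, and 5.61, adjusted p = 1.04e-04 without mixed cells). Its libraries lay far apart in Fracture-1, at 59.9 CPM in rep1 and 678 CPM in rep2, and stood at 537 and 365 CPM in Fracture-2. Crabp2, which carries retinoic acid, was at 0.527 and 0.451 CPM in Control against 36.6 and 118 CPM in Fracture (7.39 ± 0.63, adjusted p = 0.00749, and 6.93, adjusted p = 0.00295 without mixed cells). C1qtnf3 (1.37 and 0.338 against 47.3 and 177 CPM, 7.13 ± 0.74, adjusted p = 0.01099), Fbln2 (1.26 and 0.563 against 27.96 and 95.05 CPM, 6.18 ± 0.65, adjusted p = 0.0117), a matrix glycoprotein, and Anxa8 (3.27 and 0.225 against 83.9 and 78.4 CPM, 5.61 ± 0.72, adjusted p = 0.0173) rose both ways, as did Fn1. Without mixed cells C1qtnf3 was at 5.29, adjusted p = 0.0146, Fbln2 at 4.26, adjusted p = 0.0477 and Anxa8 at 5.33, adjusted p = 0.0238. Ptgs2, which makes prostaglandins, was at 0.949 and 0 against 58.1 and 28.3 CPM (6.496 ± 0.90, adjusted p = 0.0186), but neither it nor R3hdml (5.35 ± 1.02, adjusted p = 0.0426) nor Prkg2 (5.23 ± 0.94, adjusted p = 0.0365) was called without mixed cells. Their values were then 5.07, adjusted p = 0.08204, 2.05, adjusted p = 0.242 and 2.86, adjusted p = 0.126. Lcn2, lipocalin 2, was at 2.11 and 1.13 CPM in Control against 2.15 and 253 CPM in Fracture (6.44 ± 1.28, adjusted p = 0.0461). Its value came from Fracture-2, where neutrophil markers stood at 3197 CPM and 1 of 83 cells held 99.1% of the S100a8 and S100a9 UMIs. Whether the Lcn2 UMIs lay in that cell was not tested. Tnn, tenascin N, held 3 UMIs in Control and 55 in Fracture, a ratio of 316 (95% counting interval 103 to 1580), and with Mmp3 and Lcn2 it was not tested without mixed cells. All 3 Control UMIs of Tnn lay in Control-1 rep1, and without Fracture-2 rep1 its ratio was 120 (33.0 to 657). Single libraries weighed heavily on most of the rising genes. R3hdml stood at 183 CPM in Fracture-1 rep1 and at 0, 9.94 and 5.07 CPM in the other Fracture libraries, and its pooled ratio went from 35.0 to 3.96 without that library (52.8 without Fracture-2 rep1). Prkg2 went from 32.4 to 9.68 without Fracture-1 rep1 (49.6 without Fracture-2 rep1), and Ptgs2 from 84.3 to 51.9 without it, or to 189 (60.5 to 950.1) without Control-1 rep1. Without Fracture-2 rep1 Crabp2 went from 169 to 58.5 and C1qtnf3 from 138 to 43.3, and without Fracture-2 rep2 Lcn2 went from 88.0 to 9.17. Fbln2 went from 71.0 to 113 and Anxa8 from 44.9 to 85.1 without Control-1 rep1.

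On the falling side Slco1a4, an organic anion transporter, was at 47.6 and 56.1 CPM in Control against 2.15 and 6.67 CPM in Fracture (-3.34 ± 0.38, adjusted p = 0.0122). Gpr171 (43.2 and 54.1 against 6.45 and 5.0 CPM, -2.98 ± 0.33, adjusted p = 0.0117), P2ry14 (76.9 and 114 against 10.8 and 25.01 CPM, -2.24 ± 0.37, adjusted p = 0.0303) and Gpr50 (32.4 and 41.6 against 6.45 and 5.0 CPM, -2.58 ± 0.36, adjusted p = 0.0191) are G protein-coupled receptor genes. Apod, a lipocalin that binds lipids, was at 58.2 and 74.6 against 10.8 and 8.34 CPM (-2.69 ± 0.30, adjusted p = 0.0117), and Deptor, an inhibitor of mTOR, at 133 and 212 against 23.7 and 33.3 CPM (-2.45 ± 0.32, adjusted p = 0.0173). Cbln1 (107 and 118 against 17.2 and 11.7 CPM, -2.86 ± 0.23, adjusted p = 0.00749), Cybb, a subunit of the phagocyte oxidase (37.3 and 48 against 4.302 and 10 CPM, -2.38 ± 0.38, adjusted p = 0.0256), the tight junction gene Cldn1 (59.2 and 53.3 against 8.603 and 11.7 CPM, -2.32 ± 0.26, adjusted p = 0.0117) and Ifitm1 (83.2 and 112 against 15.1 and 21.7 CPM, -2.26 ± 0.27, adjusted p = 0.0144) completed the group with Fkbp5 and Angpt2. Without 1 library of Fracture-2 the pooled ratio fell further below 1, from 0.0908 to 0.0584 for Slco1a4, from 0.194 to 0.125 for Ifitm1 and from 0.198 to 0.111 for P2ry14 (without rep1), and from 0.177 to 0.0814 for Cybb (without rep2). All of these except Gpr50 (-3.07, adjusted p = 0.0721) were also called without mixed cells.

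Diaphyseal Adipoq cells of Control also carried RNA of basophil genes, which was nearly absent from those of Fracture. Prss34 held 4303 UMIs in Control and 1 in Fracture, a ratio of 249 (95% counting interval 44.8 to 9857), and Mcpt8, another basophil protease, 3049 and 1, a ratio of 177 (31.7 to 6985). These 2 fell, out of 4 basophil and mast cell markers, whose sums were 646, 206, 2.15 and 1.67 CPM. In all other kept cells the sums of these markers were 5930, 4964, 57.3 and 52.6 CPM, so the drop was not particular to diaphyseal Adipoq cells. Megakaryocyte markers summed to 1971, 116, 25.8 and 16.7 CPM, against 2956, 778, 57.3 and 41.5 CPM in all other kept cells. EdgeR called none of the 3 (2 lower at an unadjusted p under 0.05), while DESeq2 called all 3 lower. Both preparations of Control also held most of the leftover blood cells given above.

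The fracture effect was compared with that in cells with Postn and no Adipoq (Postn+ stroma, 326, 152, 523 and 563 cells). The test used a term for cell class by group with the preparation as a block. In Postn+ stroma itself edgeR called 2294 of 12188 genes higher in Fracture and 1974 lower. A difference can therefore come from a change in either cell class. Whether the Postn+ cells were of the same kind in both groups was not tested. Of 13136 genes the effect was higher in diaphyseal Adipoq cells for 529 (4.03%) and lower for 542 (4.13%), or for 230 and 50 when cells with Mmp9 and Pdgfrb took the place of the Postn+ cells. Without mixed cells it was higher for 532 of 13416 genes and lower for 767. In this comparison, and in its list counts below, mixed cells were left out of the diaphyseal Adipoq cells only. The Postn+ stroma was not filtered in that way, so the cell classes were not chosen alike, and the part of this in the shift was not tested. Apod fell in diaphyseal Adipoq cells and stood in Postn+ stroma at 5.44 and 6.799 CPM in Control and 84.2 and 93.4 CPM in Fracture, so that the effects differed by -6.75 ± 0.32, adjusted p = 3.05e-07. Angptl1, an angiopoietin-like factor, was at 160.4 and 268 against 45.2 and 55.03 CPM in diaphyseal Adipoq cells and at 6.804 and 6.18 CPM in Control and 176 and 162 CPM in Fracture in Postn+ stroma (-6.73 ± 0.27, adjusted p = 4.97e-08). Igfbp3 was at 4.76 and 0 CPM in Control and 20.8 and 25.8 CPM in Fracture there (-5.06 ± 0.60, adjusted p = 1.60e-04). C3 (-5.49 ± 0.38, adjusted p = 3.36e-06), the glutamate transporter gene Slc1a3 (-4.84 ± 0.42, adjusted p = 1.61e-05) and Podn (-4.77 ± 0.57, adjusted p = 1.77e-04), a matrix proteoglycan, differed in the same direction. Apod, Angptl1 and Igfbp3 thus rose in Postn+ stroma (4.05 ± 0.18, 4.83 ± 0.16 and 3.09 ± 0.48) and fell in diaphyseal Adipoq cells.

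In the other direction, Car3, carbonic anhydrase 3, was at 106 and 74.03 against 329 and 455 CPM in diaphyseal Adipoq cells and at 876 and 825 CPM in Control and 66.6 and 77.2 CPM in Fracture in Postn+ stroma (5.62 ± 0.19, adjusted p = 1.79e-08). Vldlr, a lipoprotein receptor, was at 23.6 and 25.7 against 127 and 81.7 CPM and at 544 and 616 CPM in Control and 79.6 and 84.9 CPM in Fracture (4.79 ± 0.25, adjusted p = 3.71e-07), and the adhesion gene Cadm1 at 12.6 and 13.5 against 60.2 and 30.01 CPM and 254 and 305 CPM in Control and 23.7 and 30.5 CPM in Fracture (5.01 ± 0.41, adjusted p = 9.71e-06). Levels of Vldlr and Cadm1 lay closer together between the cell classes in Fracture than in Control, and for Car3 the order of the classes was turned. Crabp2 (5.497 ± 0.91, adjusted p = 0.00219) turned to -4.97 in cells thinned to 3000 UMIs and to -4.66 without Control-2, Tnn (4.81 ± 0.80, adjusted p = 0.00230) was at 2.14 without mixed cells, and Cfd (8.37 ± 1.38, adjusted p = 0.00276) rested on Fracture-2 and on a Postn+ stroma with no UMI of it in Fracture, so that its size depends on the fit's prior count. Against Mmp9+ stroma only 5 of the 12 named differences kept their direction and their call, and 3 were no longer called. The other 4, Angptl1, C3, Podn and Crabp2, changed sign (1.07, 0.635, 0.562 and -1.82).

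**Figure D5:**
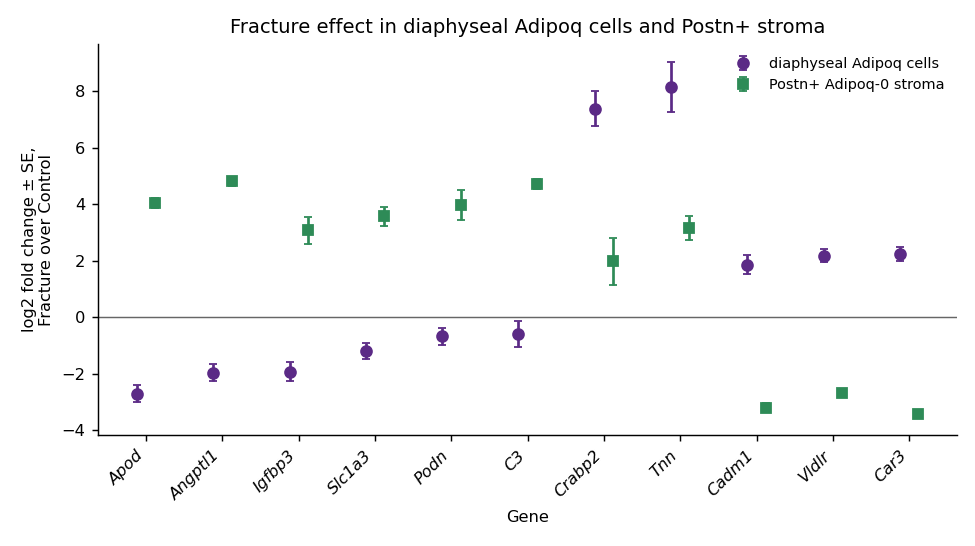
Log2 fold change ± SE (Fracture over Control) of the genes named for their unequal effect, in diaphyseal Adipoq cells (circles) and in Postn+ stroma (squares), without Cfd, whose value rests on 1 preparation. Apod to C3 lie below 0 in the first and above 0 in the second, and Cadm1, Vldlr and Car3 the other way round.

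Over all genes tested, 4.03% had a higher effect in diaphyseal Adipoq cells than in Postn+ stroma and 4.13% a lower one. Of the osteogenic genes, 13 of 17 had a higher effect and none a lower one, as for Spp1 (4.24 ± 0.48, adjusted p = 1.23e-04) and Alpl (2.89 ± 0.25, adjusted p = 1.33e-05). Stromal transcription factors had 8 of 22 higher and 1 lower, Runx2 among the higher (1.299 ± 0.19, adjusted p = 9.27e-04). Within diaphyseal Adipoq cells Runx2 was not called (log2 fold change -0.16). Bglap and Postn, which helped to choose the cells compared, were given no test here. Adipogenic and lipid genes had 6 of 24 higher and 1 lower, genes of BMP, TGF-beta and Wnt signalling 11 of 38 higher and 11 lower, and chaperones 6 of 22 lower and none higher. Complement genes had 6 of 14 lower and 2 higher, and cytokine genes 6 of 17 lower and 1 higher. Without mixed cells each of these lists held as many tested genes, and over all 13416 genes 532 were higher and 767 lower. The osteogenic genes then had 11 higher and 3 lower, the transcription factors 7 and 3 and the adipogenic and lipid genes 6 and 2. The signalling genes had 9 and 12, the chaperones 0 and 12, the complement genes 2 and 6 and the cytokine genes 1 and 8. Of 11 niche factors tested, the effect was lower for 4 and higher for 1. Lower were Ptn, the gene of pleiotrophin (-3.92 ± 0.76, adjusted p = 0.00633), Igf1 (-1.82 ± 0.20, adjusted p = 8.19e-05), Il34 (-1.803 ± 0.34, adjusted p = 0.00479) and Mdk (-0.72 ± 0.18, adjusted p = 0.0248). Higher was Il7 (1.12 ± 0.26, adjusted p = 0.0194). Within diaphyseal Adipoq cells neither Igf1 (0.32) nor Il7 (-0.71) was called, and both values had the sign opposite to that of the difference. Vcam1 (-0.05 ± 0.16, adjusted p = 0.91) did not differ past the threshold, nor did Kitl (0.37 ± 0.17, adjusted p = 0.257). Without mixed cells 3 were lower, Ptn, Igf1 and Il34, and 2 higher, Il7 and Kitl (0.60, adjusted p = 0.0134). Lepr (0.82 ± 0.16, adjusted p = 0.00709) and Esm1 (2.07 ± 0.21, adjusted p = 4.65e-05) fell less in diaphyseal Adipoq cells than in Postn+ stroma, where they were at -2.52 ± 0.12 and -3.28 ± 0.20, and Lpl (-0.66 ± 0.14, adjusted p = 0.0109) fell more.

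Cycling genes were found in few cells at a fixed depth. With cells thinned to 1000 UMIs, a UMI of Top2a or Mki67 was found in 2.54 and 2.74% of cells in Control and in 4.92 and 2.41% in Fracture (2.64 ± 0.142 against 3.66 ± 1.77, SD, n = 2, exact permutation p = 1.00, two-sided). The groups overlapped, and without Fracture-1 the difference of 1.03 points became -0.227. Without thinning, the share was 9.93 ± 2.01% in Control and 15.0 ± 4.23% in Fracture (SD, n = 2), 5.11 points apart, at the smallest p that this design allows (exact permutation, 0.333). No difference of any size could pass a threshold of 0.05 with n = 2 per group.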

How the data were processed

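Droplet libraries (Chromium 3′ kit, version 3) of bone stromal cells were used, 8 in all. The authors deposited raw counts of UMIs for each gene and barcode, not normalised. The submitters' processing notes name bcl2fastq 2.19.1.403, UMI-tools 1.0.0, STAR 2.7.3a and featureCounts 1.6.4 on mm10, whereas the published methods name STARsolo, so which of them counted these tables is not settled. How barcodes were selected before deposit is not settled either, and Control tables include barcodes of 1 UMI. Of 48903 barcodes, 1801 held too few genes and 2088 passed the mitochondrial limit. Gene coordinates came from GENCODE (GRCm38).

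The members and lists were chosen with earlier results of these data known. UMIs of diaphyseal Adipoq cells were summed per preparation over both libraries. Fracture was compared with Control by edgeR 4.0.16 (quasi-likelihood test, TMM scaling, its filter on low counts, Benjamini-Hochberg adjustment), on R 4.3.3 with limma 3.58.1. The 367 genes that the tables of Control-1 do not list were left out of all tests after a first fit had been seen, which left 28589 of 28956. Values in CPM are plain UMIs per 1000000, and log2 fold changes are those of the fit. The 10 genes of the rule were given no test. Named genes were the 12 largest rises and 12 largest falls among genes called, with preparations that did not overlap between groups and a mean of at least 20 CPM, leaving out rule, marker, mitochondrial, ribosomal and haemoglobin genes. For the difference from Postn+ stroma the 6 largest each way were named. Genes of the lists may be named too. For shares, exact permutation tests (two-sided) were run in scipy 1.17.1. Before cells with a UMI were counted, cells were thinned at random to 2000 UMIs, or 1000 for Top2a and Mki67, and shallower cells were left out. Doublets were scored with scrublet in scanpy 1.11.5 (expected rate 6%). It marked 722 kept cells (1.59%), 29 of them diaphyseal Adipoq cells, which were kept, except in an alternative. DESeq2 1.42.0 was an alternative test. Python 3.11.15, numpy 2.4.6, pandas 2.3.3 and matplotlib 3.10.9 were used. Intervals cover counting error only.

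The edgeR tests were tested on simulated counts with 200 genes changed. The fit of diaphyseal Adipoq cells (12724 genes) made 78 calls, recovered 66% of the 4-fold and 9% of the 2-fold changes, and 3.85% of its calls were false. That of the difference from Postn+ stroma (13040 genes) made 34 calls and recovered 30% and 1%, and 8.82% were false.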

Additional observations from a re-analysis of the deposited data

Results flagged for a closer look

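Within groups of 4 libraries, 13 of 166 sets of values had 1 library set apart from the other three by Dixon's criterion, which chance alone gives for about 1 set in 20. Among Control libraries these were Sgms2 at 107 CPM in Control-1 rep2, and Saa3 at 9.22, Tnn at 0.643 and Cfd at 269 CPM in Control-1 rep1. For Saa3 the Fracture libraries lay much farther apart, at 22.1 and 0 CPM in Fracture-1 and at 1801 and 7230 CPM in Fracture-2, and the fracture effect was not called (log2 9.46, edgeR adjusted p = 0.0659). Among Fracture libraries, Il34 stood at 41.0 and Serpina3g at 255 CPM in Fracture-1 rep1, and Angptl1 at 13.6 CPM in Fracture-1 rep2. C3 stood at 1080 CPM in Fracture-2 rep2, and Tnn at 104 and Cadm1 at 17.4 CPM in Fracture-2 rep1. C1qtnf3 stood at 256 CPM in Fracture-2 rep1, Lcn2 at 710 CPM in Fracture-2 rep2 and R3hdml at 183 CPM in Fracture-1 rep1.

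The fracture effect differed between diaphyseal Adipoq cells and Postn+ stroma, by a test of the difference itself, for 1071 genes. The largest differences (log2, diaphyseal Adipoq cells minus Postn+ stroma) below 0 were Apod at -6.75, Angptl1 at -6.73, C3 at -5.49, Igfbp3 at -5.06, Slc1a3 at -4.84 and Podn at -4.77. Above 0 they were Cfd at 8.37, Car3 at 5.62, Crabp2 at 5.50, Cadm1 at 5.01, Tnn at 4.81 and Vldlr at 4.79.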

How the results depend on the processing

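The share of diaphyseal Adipoq cells was lower in Fracture under every alternative tried, by 12.2 to 16.2 percentage points, with the value furthest from -13.8 (-16.2) among cells with no Ptprc and under 200 haemoglobin UMIs per 10000. Leaving out a preparation gave -12.6 to -15.1 points. The 520 genes called became 958 by DESeq2, 337 with stricter limits on osteoblast and chondrocyte genes, 234 without mixed cells, 311 from rep1 libraries only, 77 from rep2 libraries only, 37 to 343 with a preparation left out, and 0 with the genes unlisted in Control-1 counted as 0 there (edgeR, 2757 at an unadjusted p under 0.05). Upper quartile scaling gave 543, library totals 595, no filter 655 and no doublets 689. Cells thinned to 3000 UMIs before the choice gave 419 and Adipoq of at least 5 UMIs 400. Cells thinned to 2000 UMIs gave 538, of which 288 were among the 520. A replicate block on the preparation number gave 1321 calls. Same-numbered preparations deviated together with r = 0.0300 over 8886 genes, and the labels do not say that a number marks a shared batch, so the numbers do not pair the preparations. The 1071 genes whose effect differed from Postn+ stroma became 280 against Mmp9+ stroma (230 higher and 50 lower). Under the other settings they became 769 to 1299. The last was without mixed diaphyseal Adipoq cells, with Postn+ stroma unfiltered (532 higher and 767 lower). Of the values for single genes over all settings, 1163 kept their direction and their side of the threshold, whether called or not, 234 were no longer called, 29 became called and 7 changed sign. Those that changed sign were Pparg (0.0355 with at least 5 Adipoq UMIs and 0.110 from rep2 libraries), Cebpa (0.0698 at 2000 UMIs), Ibsp (0.00711 from rep1 libraries, and -1.04 to 0.219 with a preparation left out), C3 (0.292 from rep2 libraries) and Cfd (-5.10 to 5.79 with a preparation left out). Of the differences from Postn+ stroma, Angptl1 (1.07), C3 (0.635), Podn (0.562) and Crabp2 (-1.82) changed sign against Mmp9+ stroma, Crabp2 also at 3000 UMIs (-4.97) and with a preparation left out (-4.66 to 6.72), and Cfd likewise (-0.644 to 9.49). The difference in cells with Top2a or Mki67 was 5.11 points without thinning and -0.227 to 2.28 with a preparation left out. Of 58 called genes compared by library, 20 had a pooled ratio that moved by over 1.5 times, or could not be formed, without 1 library. Except where an alternative's own construction shows it, the cause was not tested.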
